A study of Mus musculus with 2 samples.

Results

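The genes of the proteasome, the protease that degrades ubiquitin-tagged proteins, were examined in RNA-Seq of brown preadipocytes and brown adipocytes. Members were the rows of the deposited table with values whose symbol begins with Psma to Psmg followed by a number. The pattern matched 49 symbols, and the 3 immunoproteasome genes Psmb8, Psmb9 and Psmb10 were set apart, which left 46 of 23361 genes. The D0 library was made from brown preadipocytes of C57BL/6 newborn mice, isolated from interscapular brown adipose tissue and held before induction in medium with T3 at 1 nM and insulin at 0.1 μM. The D7 library was made from the same kind of cells at day 7, after 2 days with 0.125 mM indomethacin, dexamethasone at 2 μg/ml and IBMX at 0.5 mM, with insulin and T3 throughout. There was 1 library per stage, so no difference has a replicate check and no p-value is given. The labels give the strain as C57BL/6 and the methods of the study as C57BL/6J. The labels call the cells primary cultures, while the methods of the study describe preadipocytes immortalized with large T and give other doses of insulin and dexamethasone. For preadipocytes before induction, the methods name a medium with serum and antibiotics, and they list insulin and T3 only for differentiation. The methods state that several mice, 1 day old and of either sex, were used. Whether their cells were pooled is not given in the sources used here.

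The proteasome has a barrel-shaped 20S core and caps that regulate entry to it. In the core, rings of alpha subunits (Psma genes) form the gates and rings of beta subunits (Psmb genes) hold the active sites inside. The 19S regulatory particle binds ubiquitin chains, unfolds the protein with a ring of ATPases (Psmc genes) and removes ubiquitin with non-ATPase subunits (Psmd genes), and together they make the 26S proteasome. In brown fat, proteasome activity is known to be needed for protein quality control during thermogenesis, and the transcription factor Nfe2l1 is known to maintain it.

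The values are FPKM, fragments scaled to transcript length and library size, which can be compared between genes. They were used as deposited, without a logarithm or rescaling. Fragment numbers behind the values were estimated from the steps between low values, and the parentheses after a ratio hold its exact 95% Clopper-Pearson interval on that number. Such an interval holds the error of counting alone, so it sets library against library and not stage against stage. The values are relative to about 21471684 fragments at D0 and 18265472 at D7. All 5 adipocyte markers (Pparg, Cebpa, Fabp4, Adipoq and Plin1) were at least 2.0-fold higher at D7. The brown markers Ucp1, Cidea and Elovl3 were listed at 0 at D0, and at D7 their FPKM was 4.57, 24.4 and 34.2. Among other cell types and states, 7 of 7 leukocyte markers were at least 2.0-fold higher and 3 of 4 proliferation markers at least 2.0-fold lower at D7. The other proliferation marker, Pcna, had a ratio of 0.666 (0.610 to 0.726). Over all genes above 0 in both libraries, 18.5% were higher and 13.2% lower at that threshold. In bulk RNA, fewer cells of a type and less RNA per cell cannot be told apart.

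Most proteasome genes differed less than 2.0-fold between the stages, and the common subunits were among the more abundant transcripts of both. FPKM was above 0 in both libraries for 45 of the 46 genes, and the other, Psmb11, was listed at 0 in both. Following the rule of the study, a gene was called at a ratio of D7 to D0 of at least 2.0 or at most 0.5. Of the 45 genes, 1 was higher (Psma1), 2 were lower (Psma8 and Psmc3ip) and 42 lay between. Among all 14986 genes above 0 in both libraries, 31.7% were called, 18.5% as higher and 13.2% as lower. Of the 6888 genes with an FPKM of at least 10 in a library, 25.5% were called, 14.7% as higher and 10.8% as lower. Neither of the lower members is a subunit of the common proteasome, since Psma8 is a testis subunit and Psmc3ip encodes a recombination protein that shares the start of its name with Psmc3.

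The 14 common 20S core genes and the 17 Psm-named genes of the 19S particle were all at or above percentile 93.1 of the table at D0 and 93.5 at D7. Among these 31 genes, Psma1 was the only one past 2.0-fold. The median log2 ratio was -0.019 and its quartile range was 0.38, from -0.26 to 0.12. For the 6888 genes with an FPKM of at least 10 the median was -0.077 and the quartile range 1.05, from -0.54 to 0.51. Genes entered that set through either library. Its median FPKM at D0 was 22.2, against 105 for the 31 genes, so the ranges are not matched for level. The summed FPKM of the 31 genes was 3732.7 at D0 and 3718.4 at D7, or 0.729% and 0.712% of each library's total. The values rested on about 1088 to 11097 fragments per gene and library, so that many ratios under 2.0-fold exceed counting error. Intervals lay above 1 for 11 genes, below 1 for 13 and included 1 for 7. An interval was available for 6549 genes with an FPKM of at least 10 in a library. It lay above 1 for 39.6%, below 1 for 47.8% and included 1 for 824 genes. The share with an interval that included 1 was thus larger among the 31 genes, although their fragment numbers were mostly higher.

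**Figure D1:**
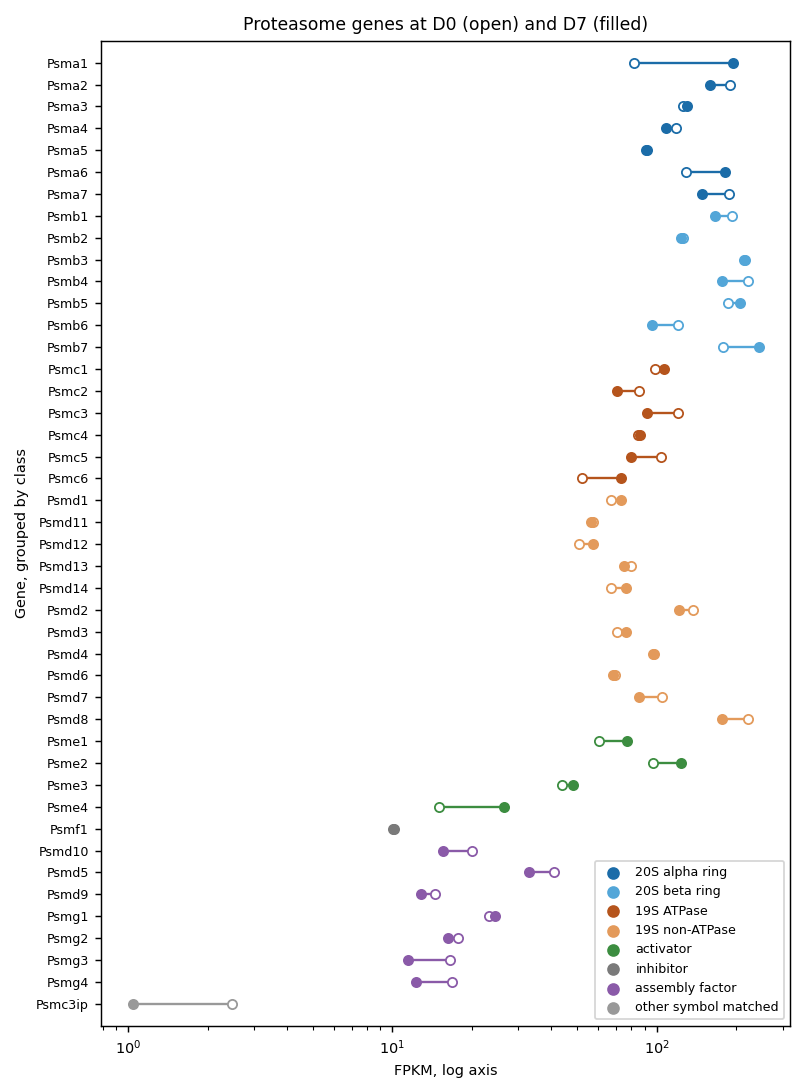
FPKM of proteasome genes on a log axis at D0 (open circles) and D7 (filled circles), joined by a line and coloured by class. Psma1 has the longest line among core and 19S genes, from 82.2 to 195, and Psma8 and Psmb11, near or at 0, are not drawn.

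The gates of the core are built from alpha subunits, and of their 7 genes 3 were above and 4 below a ratio of 1. Psma1 was the least abundant of the 14 core transcripts at D0, with an FPKM of 82.2, and the fourth most abundant at D7, with 195. Its ratio of 2.37 (95% interval 2.24 to 2.51) rested on about 1800 and 3630 fragments, and its interval lay above 2.0. Psma1 (ENSMUSG00000030751.18) spans chr7:114264606-114276118 of mm10, minus strand, and no exon of another gene overlaps its exons. No window of 90 bases of its transcript occurs unchanged in an annotated transcript of another gene. Copies with mismatches or outside annotated transcripts were not looked for, for this or any other member.

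The other alpha genes stayed closer to their D0 level. Psma6 went from 130 to 181 in FPKM, a ratio of 1.40 (1.32 to 1.47). The deposited locus of Psma6 also spans the coding genes Nfkbia, Ppp2r3c and 1110008L16Rik, and Nfkbia had a ratio of 2.17. Whether reads of these genes entered the value of Psma6 was not tested. Psma7 was the lowest of the alpha genes by ratio, from 188 to 148, a ratio of 0.789 (0.745 to 0.835). Psma2 went from 189 to 160, a ratio of 0.844 (0.820 to 0.869), and Psma4 from 118 to 108, a ratio of 0.913 (0.860 to 0.969). The interval of Psma5, from 91.6 to 90.9, includes 1. Psma3 went from 126 to 130, a ratio of 1.035. Copies may share reads with some of these genes, because 20.9% of the windows of Psma3 and 32.2% of those of Psma5 occur in transcripts of other genes.

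Psmb5, Psmb6 and Psmb7 carry the active sites of the core, and their ratios differed. The FPKM of Psmb5, the chymotrypsin-like subunit, was 186 in the D0 library and 206 in the D7 library (ratio 1.11, interval 1.05 to 1.17). Psmb6, the caspase-like subunit, had 120 and 96.4, a ratio of 0.804 (0.744 to 0.869). Psmb7, the trypsin-like subunit, had 178 and 244, a ratio of 1.37 (1.315 to 1.44), and became the most abundant core transcript at D7. The 3 intervals do not overlap each other. Psmb7 overlaps Nek6 on the opposite strand, whose transcripts hold 21.7% of its windows, and Nek6 had a ratio of 0.545. The library protocol keeps strand, since the second cDNA strand was degraded, but whether strand was used in counting is not given in the sources used here, for this and every other overlap. For Psmb5, 30.7% of the windows also occur in Gm3375 or Mir686.

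The 4 beta subunits without an active site had ratios from 0.800 to 1.02. Psmb4, the most abundant core transcript at D0, went from 222 to 178 (ratio 0.800, interval 0.765 to 0.837). Psmb1 went from 192 to 166, a ratio of 0.863 (0.831 to 0.896). Psmb3, at 213 and 217, and Psmb2, at 126 and 123, had intervals that include 1. Copies in other genes hold 22.6% of the windows of Psmb3. Over the ring of 7 beta genes, the summed FPKM was 1237.0 in the D0 library and 1230.8 in the D7 library, a ratio of 0.995. The ring of 7 alpha genes had sums of 924.8 and 1012.9, a ratio of 1.095.

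In the 19S particle, the ATPases thread the unfolded protein into the core, and their 6 genes were split evenly around a ratio of 1. Psmc6 was highest by ratio, with 52.3 FPKM in the D0 library against 73.2 in the D7 library, a ratio of 1.40 (1.33 to 1.48). Psmc3 was lowest, from 121 to 92.3, a ratio of 0.763 (0.725 to 0.803), and Psmc5 was close to it, from 104 to 79.8, a ratio of 0.768 (0.722 to 0.818). Psmc3 overlaps Slc39a13 on the opposite strand, which had a ratio of 0.673, and its part in the value of Psmc3 was not tested. The ATPases sit in 1 ring with a copy of each, and the ratios of their transcripts lay on both sides of 1. Psmc2 went from 85.6 to 70.9 (ratio 0.828) and Psmc1 from 98.8 to 107 (ratio 1.08). Psmc4, at 85.0 and 86.8, had an interval that includes 1. The highest FPKM of the 6 was 2.31 times the lowest at D0 and 1.51 times at D7.

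The non-ATPase genes showed the narrowest range of any class of core or 19S genes, with log2 ratios from -0.33 to 0.19 over 11 genes. Psmd14, the enzyme that removes ubiquitin chains, was highest by ratio, with 67.2 FPKM before and 76.5 after induction, a ratio of 1.14 (1.07 to 1.21). Psmd8, a lid subunit, was lowest, from 222 to 177, a ratio of 0.797 (0.767 to 0.829). Among the 19S genes with Psm names, Psmd8 was the most abundant transcript in both libraries. The 19S subunit Shfm1 (Sem1), described with the other lists below, was higher, at 243 and 190. The large base scaffold Psmd2 had 137 and 121, a ratio of 0.884 (0.855 to 0.914), and its partner Psmd1 had 67.2 and 73.4, a ratio of 1.09 (1.045 to 1.14). Psmd4, a receptor for ubiquitin chains, had 97.6 and 96.7, with an interval that includes 1.

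Lid subunits made up the rest of this class. Psmd12 (50.7 and 57.5) and Psmd3 (71.1 and 76.4) had intervals above 1. Psmd7 (105 and 85.8, ratio 0.820) and Psmd13 (79.9 and 75.4, ratio 0.944) had intervals below 1. Psmd6 (69.3 and 68.1) and Psmd11 (57.2 and 56.5) could not be separated from 1 by counting error. Psmd13 overlaps Sirt3 on the opposite strand, and Sirt3 was higher at D7 with a ratio of 4.92. Its part in the value of Psmd13 was not tested.

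**Figure D2:**
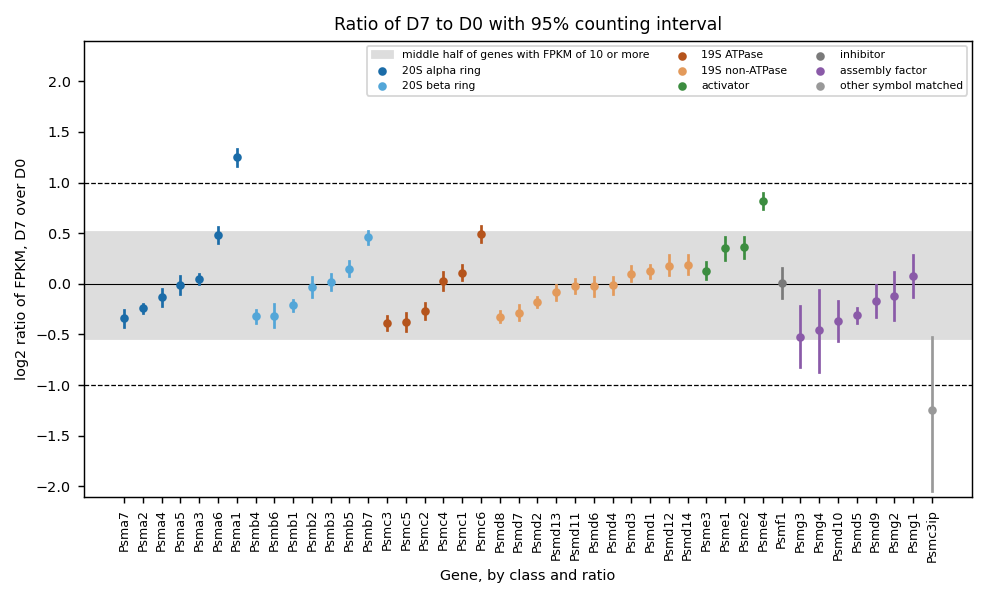
The log2 ratio of FPKM (D7 over D0) of each gene, by class, with its 95% counting interval as a bar, dashed lines at 2.0-fold and a grey band from the lower to the upper quartile of genes with an FPKM of at least 10. Of the core and 19S genes only Psma1 lies past a dashed line, and all 4 activators lie above 0 as deposited.

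The core and the 19S particle differed in level but hardly in ratio. The median FPKM of the 14 core genes was 154 at D0 and 163 at D7, and that of the 17 genes of the 19S was 85.0 and 76.5. The core median was thus 1.81 times the 19S median at D0 and 2.13 times at D7. At D0, 13 of 14 core genes were above the 19S median, with Psma1 as the exception, and all 14 were at D7. Only Psmd8 of these 17 genes was above the core median in each library. The 19S subunits Shfm1 (Sem1) and Adrm1 are not among the 17, because their symbols do not match the pattern. Shfm1, at 243 and 190, was above both core medians, and Adrm1, at 71.8 and 88.9, was below both. FPKM is per length of transcript, but the length taken for each gene by the authors is not in the table.

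The median log2 ratio was -0.019 for the core and -0.019 for the 19S, a difference of -0.001. Both lay near the median of all 14986 genes, 0.015. By summed FPKM the core had a ratio of 1.04, or 0.985 without Psma1, and the 19S had a ratio of 0.939. Means instead of medians gave a log2 ratio of 0.06 for the core and -0.04 for the 19S, a difference of 0.10. No test of this difference was made, because 1 library per stage gives none. Across the 31 genes, log2 FPKM at D0 and at D7 had a Pearson r of 0.85 and a Spearman rho of 0.84, and r was 0.92 without Psma1. The genes of a library share its depth and the genes keep their lengths between libraries, so this is a description only.

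**Figure D3:**
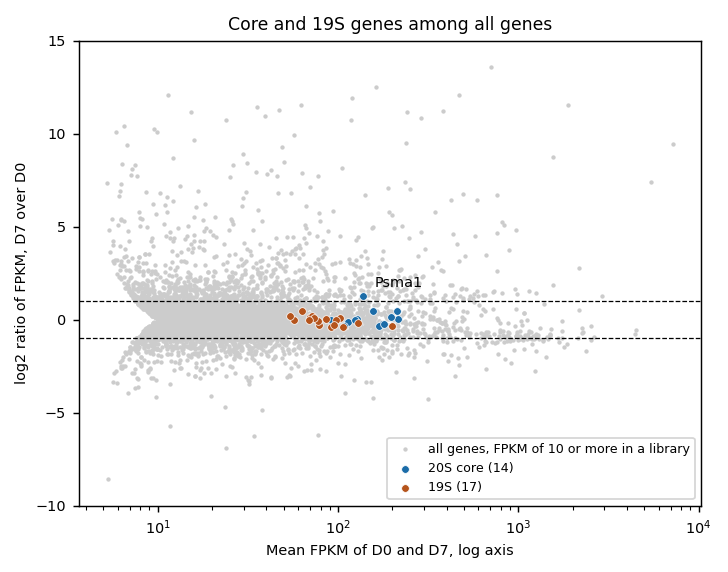
The log2 ratio of FPKM (D7 over D0) against the mean FPKM of both libraries on a log axis, for the 6888 genes with an FPKM of at least 10 in a library (grey), the 14 core genes (blue) and the 17 genes of the 19S (orange). The core genes lie to the right of most 19S genes and, apart from Psma1, within the dashed lines at 2.0-fold.

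Other caps can open the core without ubiquitin, and all 4 of their genes had intervals above 1, as did 39.6% of genes with an FPKM of at least 10. This direction depended on the scaling between the libraries: with a floor of 0.01 and a common library median, the ratio was 0.999 for Psme1, 1.006 for Psme2, 0.858 for Psme3 and 1.38 for Psme4. Psme4, which encodes PA200, a large activator found mainly in the nucleus, stood at 14.998 FPKM in the D0 library and 26.5 in the D7 library. The gene (ENSMUSG00000040850.17) spans chr11:30771726-30880361 of mm10, plus strand, and no window of its transcript occurs unchanged in a transcript of another gene. Its ratio of 1.76 (1.67 to 1.87) was the second highest of the 45 genes. At a threshold of 1.5-fold, 2 members were higher, Psme4 and Psma1, and 2 were lower, Psma8 and Psmc3ip. At that threshold 51.3% of all genes above 0 in both libraries were called, 27.7% as higher and 23.6% as lower. Of those with an FPKM of at least 10, 45.7% were called, 23.0% as higher and 22.7% as lower.

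Psme1 and Psme2 encode the alpha and beta chains of PA28, which assemble into 1 ring and are raised by interferon gamma. Psme1 had 60.5 and 77.2 FPKM, a ratio of 1.28 (1.18 to 1.38), and Psme2 had 96.6 and 124, a ratio of 1.28 (1.20 to 1.375). The 2 genes are neighbours on chromosome 14, and their ratios were nearly equal. The deposited locus of Psme1 takes in Emc9 on the opposite strand, which had a ratio of 4.28, and 47.4% of the windows of Psme2 also occur in its copy Psme2b. What part these have was not tested. Psme3, the chain of a nuclear PA28 ring, had 43.9 and 48.1, a ratio of 1.095 (1.03 to 1.16). Psmf1, known as an inhibitor of the core in the test tube, had 10.1 and 10.2, with an interval from 0.909 to 1.12.

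The assembly factors, which guide subunits into the ring and leave the finished particle, were far less abundant than the subunits. The median of their 7 genes was 17.7 FPKM at D0 and 15.5 FPKM at D7, and 6 of the 7 were below a ratio of 1, with 5 intervals below 1. Among genes with an FPKM of at least 10, 54.0% had a ratio below 1, 46.0% a ratio above 1, and 47.8% an interval below 1. None reached 0.5, and their median log2 ratio was -0.315. Psmg3 and Psmg4, which form 1 chaperone of the alpha ring, had the lowest ratios. Psmg3 went from 16.5 to 11.5, a ratio of 0.696 (0.566 to 0.860), and Psmg4 from 16.9 to 12.3, a ratio of 0.727 (0.546 to 0.960). Psmg3 overlaps Gm26938, whose transcripts hold 18.8% of its windows. The chaperone formed by Psmg1 (23.1 and 24.4) and Psmg2 (17.7 and 16.3) had intervals that include 1 for both genes.

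The factors that assemble the base of the 19S carry Psmd names but are not part of the finished particle. Psmd10, also called gankyrin, had an FPKM of 20.0 and 15.5, a ratio of 0.775 (0.677 to 0.889). Psmd5 had 40.998 and 33.0, a ratio of 0.804 (0.764 to 0.846). Psmd9 had 14.4 and 12.8, a ratio of 0.887 (0.795 to 0.992). All 3 were lower at D7 by less than 2.0-fold, with intervals below 1. With them counted in, the 19S had a median log2 ratio of -0.05.

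The tissue-restricted core genes were at or near 0. Psma8, which replaces Psma7 in the testis, stood at 0.123 and 0.0362 FPKM, or about 4 fragments and 1. Its ratio of 0.294 has an interval from 0.00597 to 2.97, so no difference was detectable at this depth. Psmb11, of the thymus proteasome, was listed at 0 in both libraries, and a count of 0 allows up to 3 fragments in each. Psmc3ip, which acts in recombination rather than in proteolysis, fell from 2.47 to 1.04, a ratio of 0.421 (0.2415 to 0.699) on about 59 and 21 fragments. Mlx overlaps it on the opposite strand and had a ratio of 1.71.

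The immunoproteasome exchanges the 3 active beta subunits for others in immune and interferon-treated cells, and its genes were scarce beside those they replace. Psmb8, which takes the place of Psmb5, stood at 13.2 FPKM before and 7.52 after induction, a ratio of 0.568 (0.477 to 0.674). Psmb9, which takes the place of Psmb6, had 1.78 and 3.77, a ratio of 2.12 (1.45 to 3.12) on about 45 and 81 fragments. Psmb10, which takes the place of Psmb7, had 15.7 and 13.4, and its interval from 0.731 to 1.00 includes 1. Only Psmb9 passed 2.0-fold, and each of the 3 was below its common counterpart in both libraries. Psmb9 overlaps Tap1 on the opposite strand, which had a ratio of 0.697. Of the interferon response genes Irf1, Tap1 and B2m, 0 passed 2.0-fold. For both of these short lists, the share called among all genes above 0 in both libraries was 31.7%. The 7 leukocyte markers had a summed FPKM of 140.11 at D0 and 487.64 at D7, none of them at 0, and their ratios ran from 2.575 (Lyz2) to 10.2 (Emr1). Their part in the values of the immunoproteasome genes and of Psme1 and Psme2 was not tested.

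Outside the Psm names, 29 genes in 6 lists of the ubiquitin-proteasome system were looked up, and 0 of the 29 passed 2.0-fold in either direction. Among all genes above 0 in both libraries 31.7% were called, and among those with an FPKM of at least 10 in a library 25.5%. In the 19S, Adrm1, a ubiquitin receptor, had an FPKM of 71.8 and 88.9 (ratio 1.24), and the small subunit Shfm1 (Sem1) had 243 and 190 (ratio 0.782). Uchl5, the deubiquitinase that Adrm1 recruits, had 6.83 and 10.97, a ratio of 1.605 (1.35 to 1.92). Pomp, which drives assembly of the beta ring, had 154 and 152, with an interval that includes 1.

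The 7 regulators lay on both sides of a ratio of 1. Nfe2l1, the transcription factor that raises proteasome genes when activity falls short, had an FPKM of 121 and 152, a ratio of 1.26 (1.23 to 1.29). Ngly1 strips sugar chains from Nfe2l1 and had 9.08 and 16.9, a ratio of 1.855 (1.66 to 2.07). Ddi2, the protease that cuts Nfe2l1 into its active form, had 12.7 and 15.5, a ratio of 1.22 (1.16 to 1.29). Syvn1, a ubiquitin ligase of the endoplasmic reticulum, had 18.1 and 16.4, a ratio of 0.903 (0.830 to 0.982). Zfand5, a proteasome-binding protein, had 7.82 and 13.5 (ratio 1.73), and its relative Zfand2a had a ratio of 1.13, while Nfe2l2, a relative of Nfe2l1, had 51.9 and 43.3 (ratio 0.834).

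Proteins that carry ubiquitinated clients to the proteasome went in both directions. Ubqln1 had an FPKM of 45.2 and 81.2, a ratio of 1.79 (1.72 to 1.875). Its relative Ubqln2 had 26.1 and 17.3 (ratio 0.661), and Rad23b had 80.3 and 51.1 (ratio 0.637). Ubb, which encodes a chain of ubiquitins, had 779 and 763, a ratio of 0.980 (0.961 to 1.00). Rps27a, which encodes ubiquitin fused to a ribosomal protein, had 892 and 489, a ratio of 0.548 (0.531 to 0.566).

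**Figure D4:**
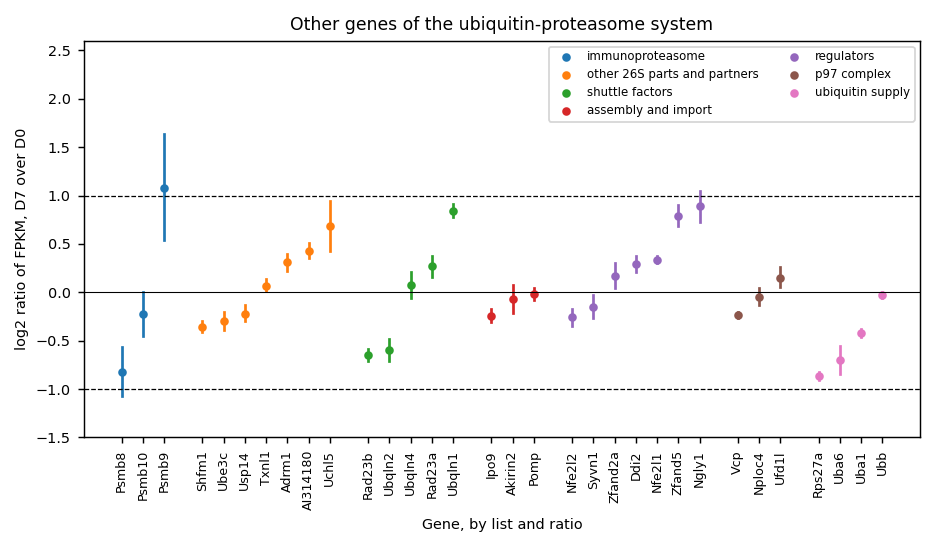
The log2 ratio of FPKM (D7 over D0) with 95% counting intervals for the immunoproteasome and 29 other genes of the ubiquitin-proteasome system, by list, with dashed lines at 2.0-fold. Psmb9, at a ratio of 2.12, is the only gene past a dashed line.

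Promoter windows from 250 bases before to 50 after the start were found for 38 of the 46 genes in RefSeq sequences of GRCm38.p6, the build of mm10, 41 windows in all. Both strands were searched for TGACNNNGC, the core of the antioxidant response element that Nfe2l1 and Nfe2l2 bind. It was present in 6 of the 41 windows (14.6%) and in 12.4% of all 32851 promoter windows. CCAAT was present in 34.1% of the windows and in 37.4% of all. The palindromic motif of nuclear respiratory factor 1 was in 2 of the 41 windows, those of Psma2 and Psmg1, and in 0.971% of all windows. A match is a description of letters and not a site of binding. The share with the first motif was thus near that of all promoters. Its windows are shown to give the letters around each match, and that of Psma1 because it was the only common subunit past 2.0-fold. Capitals mark TGACNNNGC, read as its reverse complement in Psmc6, Psmd12 and Psme4, and CCAAT in Psma1.
Psmb5, minus strand, chr14:54618018-54618058: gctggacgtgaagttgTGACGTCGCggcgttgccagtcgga
Psmb6, plus strand, chr11:70525316-70525356: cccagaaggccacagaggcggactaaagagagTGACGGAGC
Psmc6, plus strand, chr14:45329581-45329621: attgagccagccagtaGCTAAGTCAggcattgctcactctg
Psmd12, plus strand, chr11:107479278-107479318: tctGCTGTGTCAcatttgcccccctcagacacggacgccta
Psmd9, plus strand, chr5:123228143-123228183: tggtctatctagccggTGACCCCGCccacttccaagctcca
Psme4, plus strand, chr11:30771760-30771784: ctgcggctGCAGCGTCAccagaaga
Psma1, minus strand, chr7:114276117-114276236: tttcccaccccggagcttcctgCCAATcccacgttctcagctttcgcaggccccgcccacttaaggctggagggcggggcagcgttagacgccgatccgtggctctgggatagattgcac

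The 6 genes with the first motif had ratios on both sides of 1. Psme4 (1.76), Psmc6 (1.40), Psmd12 (1.13) and Psmb5 (1.11) were above it, while Psmd9 (0.887) and Psmb6 (0.804) were below it. The match in Psme4 spans its start, that in Psmb6 ends at the base before it, and those in Psmc6 and Psmd12 lie over 200 bases upstream. The window of Psma1 held CCAAT and no TGACNNNGC.

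The direction of small ratios depended on the scaling between the libraries. When values below 0.01 FPKM were raised to 0.01 and the libraries then brought to a common median over all genes, every log2 ratio of a gene above that floor shifted by -0.35. The ratio of Psma1 was then 1.86 and no longer reached 2.0, and that of Psme4 was 1.38. The median log2 ratio became -0.37 for the core and -0.37 for the 19S, and only 3 of 14 core genes and 1 of 17 genes of the 19S stayed above 1. Under the 4 other scalings tried the shift was between -0.03 and 0.04, and Psma1 stayed past 2.0-fold. The ratios of the other lists change by the same factor of 0.783, which alters the call of genes near 2.0-fold such as Psmb9 and Rps27a. The counts past 2.0-fold given for those lists are for the values as deposited. The shift moves core and 19S alike, so their difference is the same under each scaling.

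**Figure D5:**
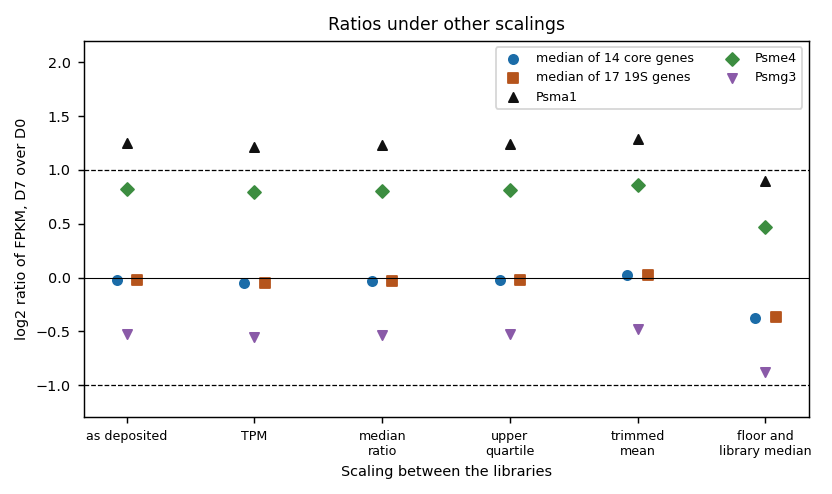
The log2 ratio (D7 over D0) of the core median, the 19S median, Psma1, Psme4 and Psmg3 with the FPKM as deposited and under 5 scalings between the libraries, with dashed lines at 2.0-fold. All points of the last scaling lie 0.35 lower, and Psma1 then falls inside the dashed lines.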

How the data were processed

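RNA-Seq was analysed for 1 library of brown preadipocytes (D0) and 1 of brown adipocytes (D7). The authors removed adaptor, low-quality, duplicate and rRNA reads and aligned the rest with SOAP2 to mm10 and to a set of genes. FPKM of each library was deposited by gene. The submitters' processing notes name Bowtie2. The libraries were strand-specific, with the second cDNA strand degraded by UNG. Whether counting used strand, and how reads that match several genes were counted, is not given in the sources used here. Of 27324 rows, 3963 without values were not used.

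Ratios of D7 to D0 were computed from FPKM above 0 in both libraries. Fragments were recovered from 603 single-exon genes of at least 600 bp, with 179 bp (D0) and 182 bp (D7) taken from the length. Of values up to 20 fragments, 100% were then whole within 0.1, against 26.0% and 15.9% with shuffled lengths. The library size and the length taken off were chosen to make these same values whole. Neither was refitted for the shuffled lengths, so the contrast is not an independent check. For other genes the length of the named GENCODE M21 transcript, less 180.5 bp, was used, so their fragments are approximate. The scripts were tested on simulated data.

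The members and lists were chosen with earlier results of these data known. Core, 19S and other classes were set by symbol. Some genes of the other lists are not reported here. Named were members past 2.0-fold or at 0, the extremes of each class, the active-site, activator, inhibitor and assembly genes, and others to complete a class. Of the other lists, the immunoproteasome genes, Nfe2l1, Nfe2l2, Pomp and any gene past 2.0-fold were to be named, and further genes there and genes overlapping members were named after their values were seen. Alternatives were pseudocounts, TPM, 4 scalings, a filter, thresholds, means, other classes and leaving out overlapping genes. Scripts ran in Python 3.11.15 with scipy 1.17.1, pandas 2.3.3, numpy 2.4.6 and, for plots, matplotlib 3.10.9.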

Additional observations from a re-analysis of the deposited data

How the results depend on the processing

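The files give no spread between cultures, since no stage has a second library. No paired analysis was possible because each stage has 1 library. A median was taken as moved where it left the range between the medians of its genes' lower and upper interval limits. With the floor of 0.01 and division by the library median, the median log2 ratio was -0.372 for the core and -0.371 for the 19S, and 0 members were higher by 2.0-fold. That scaling changed the direction of 13 of 45 genes, the trimmed mean of 5, TPM of 2, centring on the median ratio of 1, and the upper quartile and the pseudocounts of 0. Leaving out genes whose exons overlap another gene moved the core median to -0.121, while the 19S median stayed at -0.019. The core genes left out were Psma4, Psma5, Psmb5 and Psmb7. At a threshold of 1.5-fold 2 members were higher, and at 4.0-fold 0 were higher and 0 lower. With a pseudocount of 0.1, or among genes at 1 FPKM or more in each library, 1 member was lower, and with a pseudocount of 1 there were 0, because Psma8 and Psmc3ip are low. The difference between core and 19S ranged from -0.102 (without overlapping genes) to 0.101 (means) over the alternatives. Without Psma1, a choice made after seeing the data, the core median was -0.028 and the difference was -0.009.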
